A study of Mus musculus with 2 samples.

Results

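The let-7 family loci were described in microRNA sequencing of the newborn mouse forebrain. The family was taken as 10 loci, chosen by symbol and found by Ensembl identifier: Mirlet7a-1, Mirlet7a-2, Mirlet7b, Mirlet7c-1, Mirlet7c-2, Mirlet7d, Mirlet7f-2, Mirlet7g, Mirlet7i and Mir98. All 10 had a row among the 1973 miRNA loci of the count tables. The series holds 1 group of 2 libraries, made from the single forebrains of pup 3 and pup 1 of strain B6NCrl on postnatal day 0, with total RNA as the material and a listed size range of under 30. No genotype or treatment differs between the pups, whose labels carry the same donor entry and no sex. Results are therefore the level of each locus and the difference between these 2 libraries, which p-values compare in place of conditions. The counts assigned to the strand of the annotated loci summed to 2427066 in pup 3 and to 2742746 in pup 1. CPM, counts scaled to 1e+06 of them, and shares refer to these sums.

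let-7 RNAs are cut by Drosha and Dicer from hairpin precursors and repress messenger RNAs that pair with their seed, bases 2 to 8 from the 5′ end. The RNA-binding proteins Lin28a and Lin28b block the processing of let-7 precursors in early embryonic cells, and let-7 accumulates as Lin28 falls and neural progenitors give way to neurons and glia. Mammals carry the family as many loci, several of them in clusters with miRNAs of the miR-99/100 family and of the miR-125 family, the relatives of nematode lin-4.

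The 5p sequences show which copies of the family a read can tell apart. RefSeq (GRCm38.p6) holds hairpins of all 10 members and of Mirlet7e and Mirlet7f-1, which have no row of their own in the tables. The seed, GAGGUAG, was the same in all 12 and stands in capitals in these mature sequences, given 5′ to 3′.
let-7a-5p: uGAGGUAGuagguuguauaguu
let-7b-5p: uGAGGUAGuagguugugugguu
let-7c-5p: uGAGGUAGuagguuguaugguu
let-7d-5p: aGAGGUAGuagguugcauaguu
let-7e-5p: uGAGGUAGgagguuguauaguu
let-7f-5p: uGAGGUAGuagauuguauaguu
let-7g-5p: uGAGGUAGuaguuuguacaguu
let-7i-5p: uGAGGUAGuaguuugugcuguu
miR-98-5p: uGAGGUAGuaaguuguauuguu

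All of the differences but 1 lie 3′ of the seed, and positions are counted from 1 at the 5′ end of let-7a-5p. let-7c-5p differs from let-7a-5p by A19G alone, let-7f-5p by G12A alone and let-7e-5p by U9G alone. let-7b-5p carries A17G and A19G, let-7g-5p carries G12U and U18C, and miR-98-5p carries G11A and A19U. let-7d-5p carries U16C and, before the seed, U1A. let-7i-5p is the most distant, with 4 differences: G12U, A17G, U18C and A19U.

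Copies of let-7a, let-7c and let-7f therefore have the same 5p sequence and differ in the 3p arm, the strand from the other side of the hairpin. Capitals mark the bases of each 3p sequence that differ from its copy at the same position from the 5′ end.
let-7a-1-3p: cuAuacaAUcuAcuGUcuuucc
let-7a-2-3p: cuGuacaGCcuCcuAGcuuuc
let-7c-1-3p: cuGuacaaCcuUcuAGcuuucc
let-7c-2-3p: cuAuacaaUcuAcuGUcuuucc
let-7f-2-3p: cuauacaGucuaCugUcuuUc
let-7f-1-3p: cuauacaAucuaUugCcuuCcc
The 3p arms differ at 6 positions between the let-7a copies, at 5 between the let-7c copies and at 4 between the let-7f copies. The 3p arm of Mirlet7a-1 is the same as that of Mirlet7c-2, so each arm of Mirlet7a-1 and of Mirlet7c-2 occurs in 1 other hairpin. The 5p arm occurs in no other RefSeq hairpin for 5 members, Mirlet7b, Mirlet7d, Mirlet7g, Mirlet7i and Mir98, and in 1 other for the remaining 5.

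Reads that map to several places were counted at no locus by the authors, and the number of such reads was 1.07 per assigned count in pup 3 and 1.02 in pup 1. The tables do not split a locus into its arms, so which part of a hairpin its counts came from was not analysed here. Levels of the let-7a, let-7c and let-7f loci below are of reads that map to 1 place, and the order of the loci is an order of these counts, not of the mature RNAs. The mature 5p sequences all have 22 bases, so CPM were not scaled by length.

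The 10 members together held 16.7% of the counts in pup 3, with an exact Clopper-Pearson interval at 95% of 16.6 to 16.7%, and 13.3% in pup 1, where the interval was 13.3 to 13.3%. Their mean was 15.0% ± 2.40 (SD, n = 2, as for all means below), and the share of pup 3 was 1.25 times that of pup 1. All 10 had at least 10 counts in both pups, as had 16.8% of all rows. No molecular identifier is named in the labels, so a molecule copied by PCR may be counted more than once, and all intervals are of counting error alone.

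Mirlet7g and Mirlet7i, which lie in no cluster with another let-7 gene, stood at the top of the family. Mirlet7g had 67554 CPM in pup 3 and 64993 CPM in pup 1, from 163957 counts in pup 3 and 178259 in pup 1. Mirlet7i had 50446 CPM in pup 3 and 31081 CPM in pup 1. They were at ranks 2 and 3 of all rows in each pup, behind Mir99a. Relative to its mean, Mirlet7g varied the least of the 10 members, at a share of 6.63% ± 0.181, and Mirlet7i the most, at 4.08% ± 1.37.

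Mirlet7b and Mirlet7d followed at a lower level. Mirlet7b had 18928 CPM in pup 3 and 13512 CPM in pup 1. Mirlet7d had 15954 CPM in pup 3 and 12837 CPM in pup 1. Mirlet7b stood above Mirlet7d within each pup, with 45940 against 38722 counts in pup 3 and 37060 against 35209 in pup 1. Their ranges over the pups overlapped, but ranges set values of different libraries side by side and leave out this pairing.

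Mir98 and Mirlet7f-2, neighbours on the X chromosome, formed the next pair. Mir98 had 5407 CPM in pup 3 and 4247 CPM in pup 1. Mirlet7f-2 had 4929 CPM in pup 3 and 3558 CPM in pup 1. Their ranges over the pups overlapped too, although Mir98 was the higher one in each.

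The let-7c and let-7a loci closed the order. Mirlet7c-2 had 2027 CPM in pup 3 and 1529 CPM in pup 1, and Mirlet7c-1 had 921 CPM in pup 3 and 708 CPM in pup 1. Mirlet7a-1 had 433 CPM in pup 3 and 339 CPM in pup 1, and Mirlet7a-2 had 357 CPM in pup 3 and 257 CPM in pup 1. Mirlet7a-1, from 1051 counts in pup 3 and 929 in pup 1, and Mirlet7a-2, from 867 in pup 3 and 704 in pup 1, overlapped in their ranges, while Mirlet7c-2, Mirlet7c-1 and Mirlet7a-1 did not. The order of the 10 loci was the same in both pups. Of its 9 neighbouring pairs 3 overlapped, and the mean share of the first locus was 216 times that of the last.

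**Figure D1:**
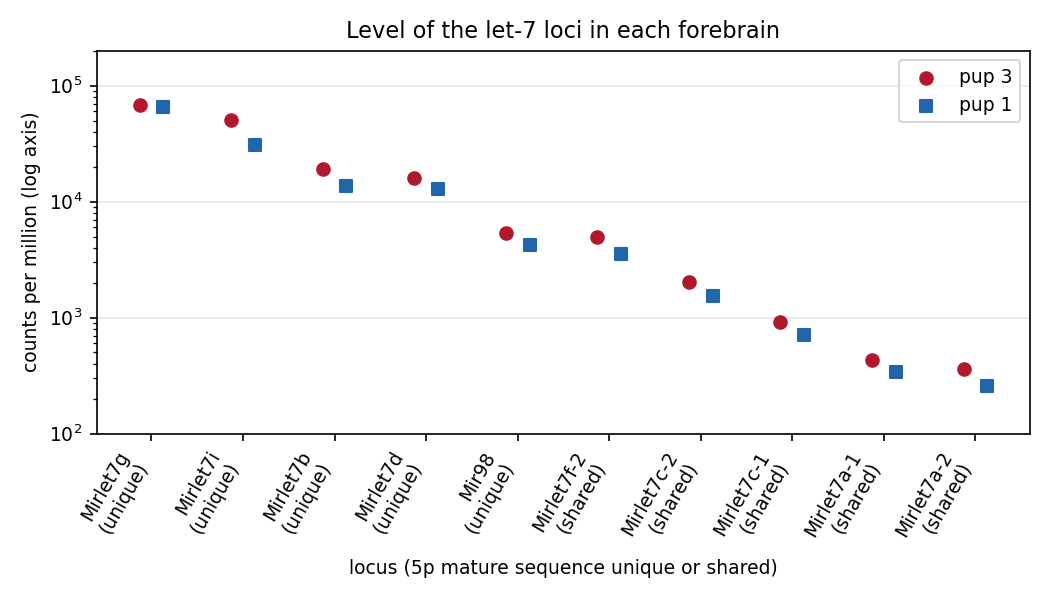
CPM (log axis) of each let-7 locus in pup 3 (circles) and pup 1 (squares), in order of mean level, with a note on whether the 5p mature sequence occurs in another hairpin (shared) or not (unique). All 10 loci are higher in pup 3, and the 5 loci with a unique 5p sequence stand above the 5 with a shared one, from 67554 CPM at Mirlet7g to 357 CPM at Mirlet7a-2 in pup 3.

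In both pups the 5 members whose 5p sequence is unique among hairpins stood above the 5 whose 5p sequence is shared. The lowest unique one, Mir98, had 13123 counts in pup 3 and 11648 in pup 1. The highest shared one, Mirlet7f-2, had 11964 counts in pup 3 and 9759 in pup 1. The 5 shared loci held 5.19% of the family's counts in pup 3 and 4.80% in pup 1. The longest run shared with another hairpin was 14 to 19 nt at the unique loci and 22 to 26 nt at the shared ones. The part that reads mapping to several places have in this split was not tested.

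**Figure D2:**
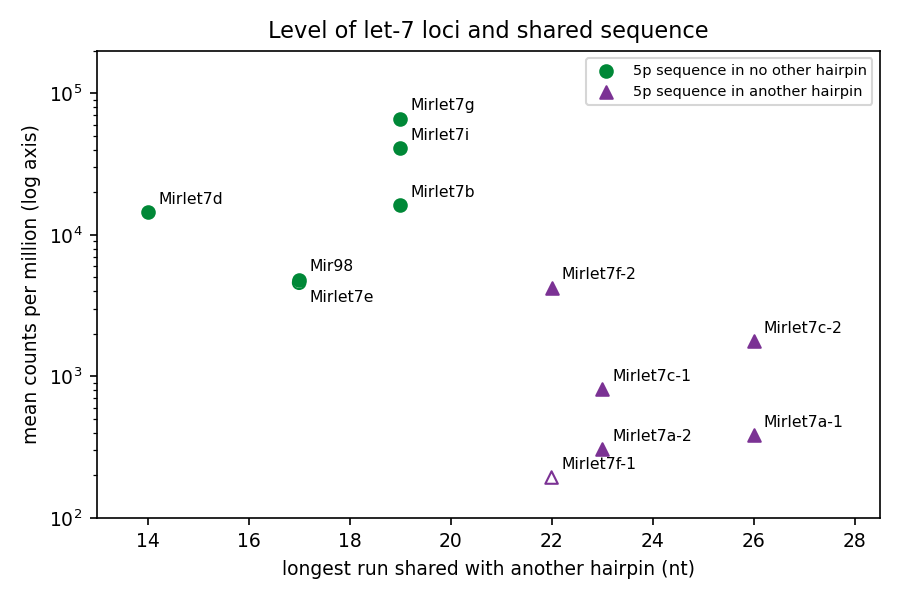
Mean CPM of both pups (log axis) against the longest run of bases that the hairpin shares with any other RefSeq mouse hairpin, for the 10 members (filled) and for Mirlet7e and Mirlet7f-1 (open, from counts on the strand opposite an annotated gene). On these means, loci with runs of 14 to 19 nt lie above those with runs of 22 to 26 nt. In pup 3 alone Mirlet7e, at 4587 CPM, was below Mirlet7f-2, at 4929 CPM. Mirlet7e overlaps Mir98 at 17 nt.

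Within the family the balance of Mirlet7g and Mirlet7i differed between the pups, on a measure that does not depend on library totals. Mirlet7g held 40.5% of the family's counts in pup 3 (95% exact interval 40.3 to 40.6%) and 48.8% in pup 1 (48.7 to 49.0%). Mirlet7i held 30.2% in pup 3 (30.1 to 30.4%) and 23.4% in pup 1 (23.2 to 23.5%). There were 0.747 counts of Mirlet7i per count of Mirlet7g in pup 3 and 0.478 in pup 1, and these ratios lie far outside each other's counting intervals (0.741 to 0.752 in pup 3, 0.474 to 0.482 in pup 1). With 1 animal on each side, this difference has no replicate check.

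Each of the other 8 members differed less between the pups in its percent of the family. Mirlet7b held 11.3% in pup 3 and 10.2% in pup 1, and Mirlet7d 9.56% in pup 3 and 9.65% in pup 1. Mir98 held 3.24% in pup 3 and 3.19% in pup 1. The remaining 5 differed by at most 0.278 percentage points.

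**Figure D3:**
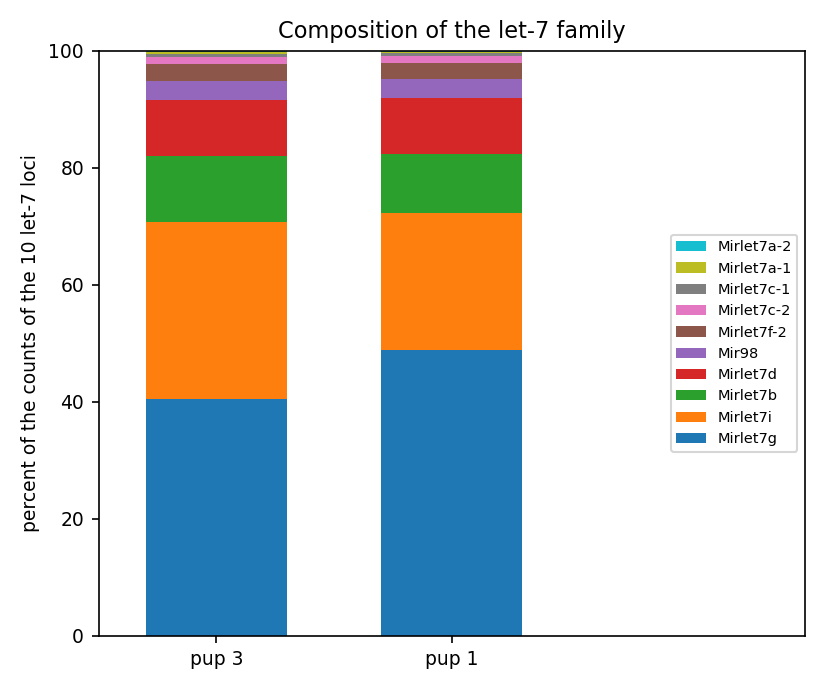
Percent of the summed counts of the 10 let-7 loci held by each locus, in pup 3 and in pup 1, as stacked bars. Mirlet7g takes 40.5% in pup 3 and 48.8% in pup 1, Mirlet7i 30.2% in pup 3 and 23.4% in pup 1, and the other 8 loci differ by fewer percentage points.

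Every member was higher in pup 3 than in pup 1. By Fisher's exact test of each locus against the rest of its library (two-sided, with Benjamini-Hochberg adjustment across the 400 loci of at least 10 summed counts), 10 of 10 members were higher at an adjusted p under 0.05, against 10.2% of all tested loci, and none was lower, against 46.2%. The largest adjusted Fisher's exact p among them was 1.36e-07, at Mirlet7a-1. With DESeq2 size factors as the scale and exact binomial tests, all 10 were higher, against 24.5% of tested loci, and with TMM-adjusted library sizes all 10, against 20.5%. These libraries differ beyond counting noise at many loci, so such p-values say that the libraries differ and nothing about the animals' variation.

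The log2 ratios of pup 3 over pup 1 (of CPM + 1) ran from 0.06 to 0.70. Mirlet7i had the highest, 0.70 (95% counting interval 0.69 to 0.71), which is 1.62-fold. Mirlet7g had the lowest, 0.06 (0.05 to 0.07), with an adjusted Fisher's exact p of 8.63e-31. The other 8 lay between 0.31 (Mirlet7d) and 0.49 (Mirlet7b), a narrow band that takes in Mirlet7a-2 at 0.48, Mirlet7f-2 at 0.47, Mirlet7c-2 at 0.41, Mirlet7c-1 at 0.38, Mirlet7a-1 at 0.35 and Mir98 at 0.35. The copies with shared and with unique 5p sequences overlapped in their ratios. Outside the members, counts opposite an annotated gene gave 0.00 (−0.04 to 0.04) at Mirlet7e and 0.89 (0.70 to 1.08) at Mirlet7f-1. The direction of the members was thus not that of every let-7 gene.

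The median ratio of the 10 members was 0.39, and that of all 400 tested loci was −0.31. Relative to the median of all loci, Mirlet7g stood at 0.37 and Mirlet7i at 1.01. With DESeq2 size factors the median of all tested loci was −0.02 and that of the members 0.71, with Mirlet7g at 0.37 and Mirlet7i at 1.01. Calls depend on depth, and the members are abundant. Of the 142 other loci at least as abundant as the lowest member, a set formed after the values were seen, 16.2% were higher in pup 3, or 45.8% with size factors, and their median log2 ratio was −0.27.

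**Figure D4:**
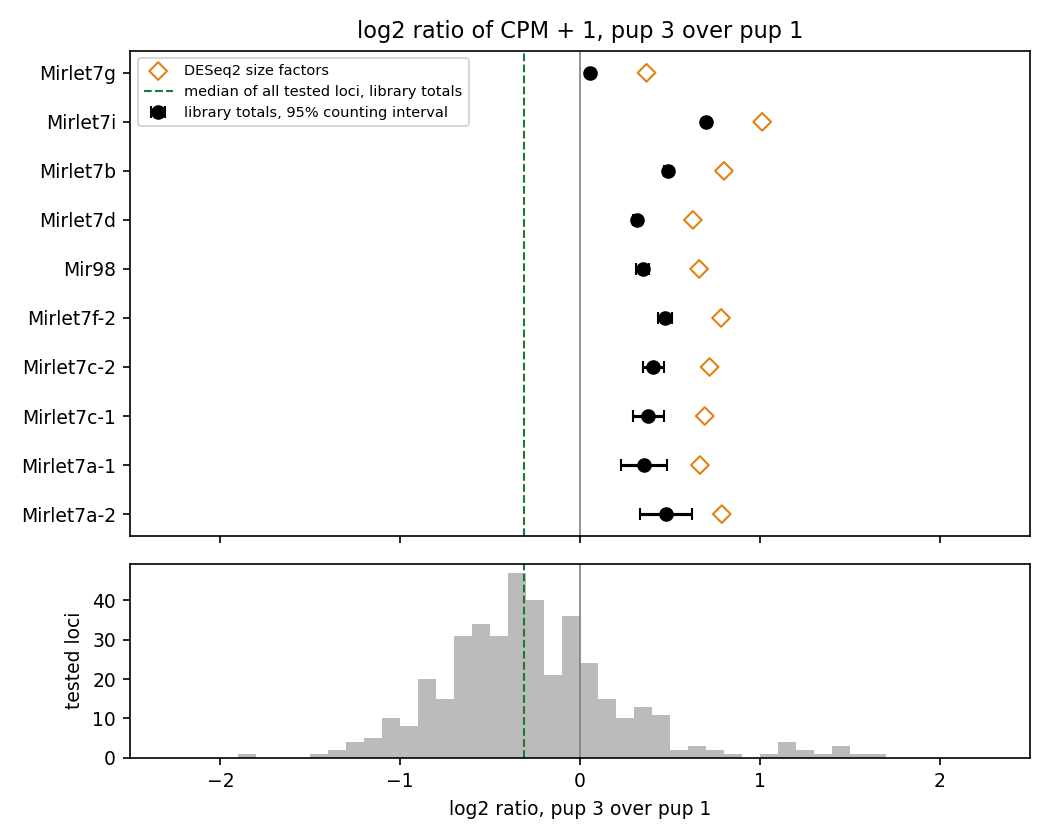
Upper panel, log2 ratio of CPM + 1 in pup 3 over pup 1 for each member with library totals (filled circles, bars are 95% counting intervals) and with DESeq2 size factors (open diamonds). Lower panel, the same ratio with library totals for all 400 tested loci, with their median of −0.31 as a dashed line. All members lie right of 0 on both scales, from 0.06 at Mirlet7g to 0.70 at Mirlet7i with totals.

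Other miRNAs that mark cell types differed between the libraries in some lists and little in others. The 7 epithelial loci, all detected, summed to 1.06% in pup 3 and 0.493% in pup 1, and the 3 sensory organ loci, all detected, to 0.215% in pup 3 and 0.0881% in pup 1. The multiciliated list, with 4 of 5 reaching 10 counts in both pups, summed to 0.493% in pup 3 and 0.820% in pup 1. The 10 loci typical of neurons were all detected, with 4.33% in pup 3 and 5.00% in pup 1. Among them 2 were higher and 7 lower with library totals, against 10.2% and 46.2% of all tested loci. Their median log2 ratio was −0.49, beside −0.31 for all tested loci. With size factors 3 were higher and 5 lower, against 24.5% and 20.8%. The 3 blood vessel loci held 3.94% in pup 3 and 3.50% in pup 1. Within the blood vessel list 1 locus was higher and 2 were lower with library totals, with a median log2 ratio of −0.22, and 2 were higher and 0 lower with size factors. No locus of these 5 lists was at 0 in both pups. Further lists differed less, with neural progenitor loci at 0.821% in pup 3 and 0.904% in pup 1. White blood cell loci held 0.0427% in pup 3 and 0.0446% in pup 1, and liver loci 0.0169% in pup 3 and 0.0172% in pup 1. Near-equal sums do not mean that each locus was level. Of 4 white blood cell loci 0 were higher and 1 lower with library totals, and 2 were higher and 1 lower with size factors. Of 2 liver loci 1 was higher and 0 lower on both scales. The shares of all tested loci called are those given above. Lists of red blood cell, oligodendrocyte and Hox cluster loci were also examined and are not given here. The part of tissue composition in the let-7 difference was not tested, and in bulk tissue fewer cells of a type and less RNA per cell cannot be told apart.

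Genomic hosts of the members, from GENCODE M21 on GRCm38, are of several kinds, and the levels did not sort by kind. Mirlet7g (chromosome 9, 106178840 to 106178927, plus strand) lies in an intron of Wdr82, which codes for a subunit of histone methyltransferase complexes. Mirlet7i (chromosome 10, 122985640 to 122985724, minus strand) overlaps an exon of D630033A02Rik, annotated as a transcribed processed pseudogene, in 1 of its 2 transcripts. Mirlet7f-2 (151912346 to 151912428) and Mir98 (151913214 to 151913321) lie on the plus strand of chromosome X in introns of Huwe1, the gene of a ubiquitin ligase. Wdr82 and Huwe1 are the protein-coding hosts of members on their own strand.

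The other 6 members lie in noncoding hosts, 4 of them in exons. Mirlet7c-2 (85706603 to 85706697) and Mirlet7b (85707319 to 85707403) lie on the plus strand of chromosome 15 in exons of Lncppara. An exon overlaps Mirlet7c-2 in 2 of the 2 Lncppara transcripts and Mirlet7b in 1 of the 2. Mirlet7a-1 (48538179 to 48538272) and Mirlet7d (48536012 to 48536114) lie on the minus strand of chromosome 13 in an exon of 6720427I07Rik, with Mirlet7f-1 (48537829 to 48537917) between them. Mirlet7c-1 (chromosome 16, 77599657 to 77599750, plus strand) lies in an intron of Mir99ahg, and Mirlet7a-2 (chromosome 9, 41536716 to 41536811, plus strand) in introns of 3110039I08Rik and Gm49317, all of them noncoding.

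Neighbours within a host differed in counts, and the ratio within a pair was close in both pups. On chromosome 15 there were 9.34 counts of Mirlet7b per count of Mirlet7c-2 in pup 3 (95% counting interval 9.07 to 9.62) and 8.84 in pup 1 (8.56 to 9.13). On chromosome 13 there were 36.8 counts of Mirlet7d per count of Mirlet7a-1 in pup 3 (34.7 to 39.2) and 37.9 in pup 1 (35.5 to 40.5). On chromosome X the pair was nearly level, with 1.10 counts of Mir98 per count of Mirlet7f-2 in pup 3 (1.07 to 1.12) and 1.19 in pup 1 (1.16 to 1.23). The intervals of the pups overlapped for the first 2 pairs and not on chromosome X. In each pair the lower locus is the one whose 5p sequence is shared.

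The copies of let-7a and of let-7c, on different chromosomes, were closer to each other in counts than to their neighbours. There were 1.21 counts of Mirlet7a-1 per count of Mirlet7a-2 in pup 3 (1.11 to 1.33) and 1.32 in pup 1 (1.20 to 1.46). There were 2.20 counts of Mirlet7c-2 per count of Mirlet7c-1 in pup 3 (2.09 to 2.31) and 2.16 in pup 1 (2.05 to 2.28). These ratios are of reads that map to 1 place and need not hold for the mature let-7a and let-7c. In both pairs the higher copy, Mirlet7a-1 or Mirlet7c-2, is the one whose 3p arm also occurs in another hairpin.

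Of the clusters that join let-7 to miR-99/100 and miR-125, 2 hold a member. On chromosome 16 Mirlet7c-1, 656 bases past Mir99a, held 0.321% of the counts of the 3 loci in pup 3 and 0.274% in pup 1, while Mir99a held 98.9% in pup 3 and 98.8% in pup 1. Mir99a had 308 counts per count of Mirlet7c-1 in pup 3 and 360 in pup 1. On chromosome 9 Mirlet7a-2, 5211 bases past Mir100, held 0.920% of the counts of its cluster in pup 3 and 0.777% in pup 1, against 89.7% in pup 3 and 89.9% in pup 1 for Mir100. In both clusters the miR-125 locus stood above the let-7 locus. Mir125b-2 held 0.815% in pup 3 and 0.932% in pup 1, and Mir125b-1 held 9.36% in pup 3 and 9.35% in pup 1.

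Another such cluster, on chromosome 17 within Spaca6, has its let-7 gene, Mirlet7e, opposite the annotated gene Gm25927. Counted on the strand opposite Gm25927, it held 13.4% of its cluster's counts in pup 3 and 14.0% in pup 1. Mir99b held 66.5% in pup 3 and 63.8% in pup 1, and Mir125a 20.1% in pup 3 and 22.2% in pup 1. In all 3 clusters the miR-99/100 locus led. let-7e-5p, unlike let-7c-5p and let-7a-5p, occurs in no other hairpin.

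The miR-99/100 and miR-125 loci of these clusters did not all share the direction of the let-7 members. With library totals 4 of the 6 partners were higher, 1 was lower (Mir125a, log2 ratio −0.07) and 1, Mir125b-2, did not pass (−0.04, adjusted Fisher's exact p = 0.189), against 10.2% higher and 46.2% lower of all tested loci. With size factors all 6 were higher, against 24.5% of tested loci. Their median log2 ratio was 0.14 with totals, beside 0.39 for the members and −0.31 for all tested loci. The difference between these medians was not tested.

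Farther neighbours within 100 kb on the strand were few. Mir135a-1, 24626 bases before Mirlet7g and outside Wdr82, had 257 counts in pup 3 and 498 in pup 1, and was lower in pup 3 with a log2 ratio of −0.77 (adjusted Fisher's exact p = 3.03e-12). Mir3113, in front of Mirlet7f-2 on the X chromosome, had no count in either pup.

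**Figure D5:**
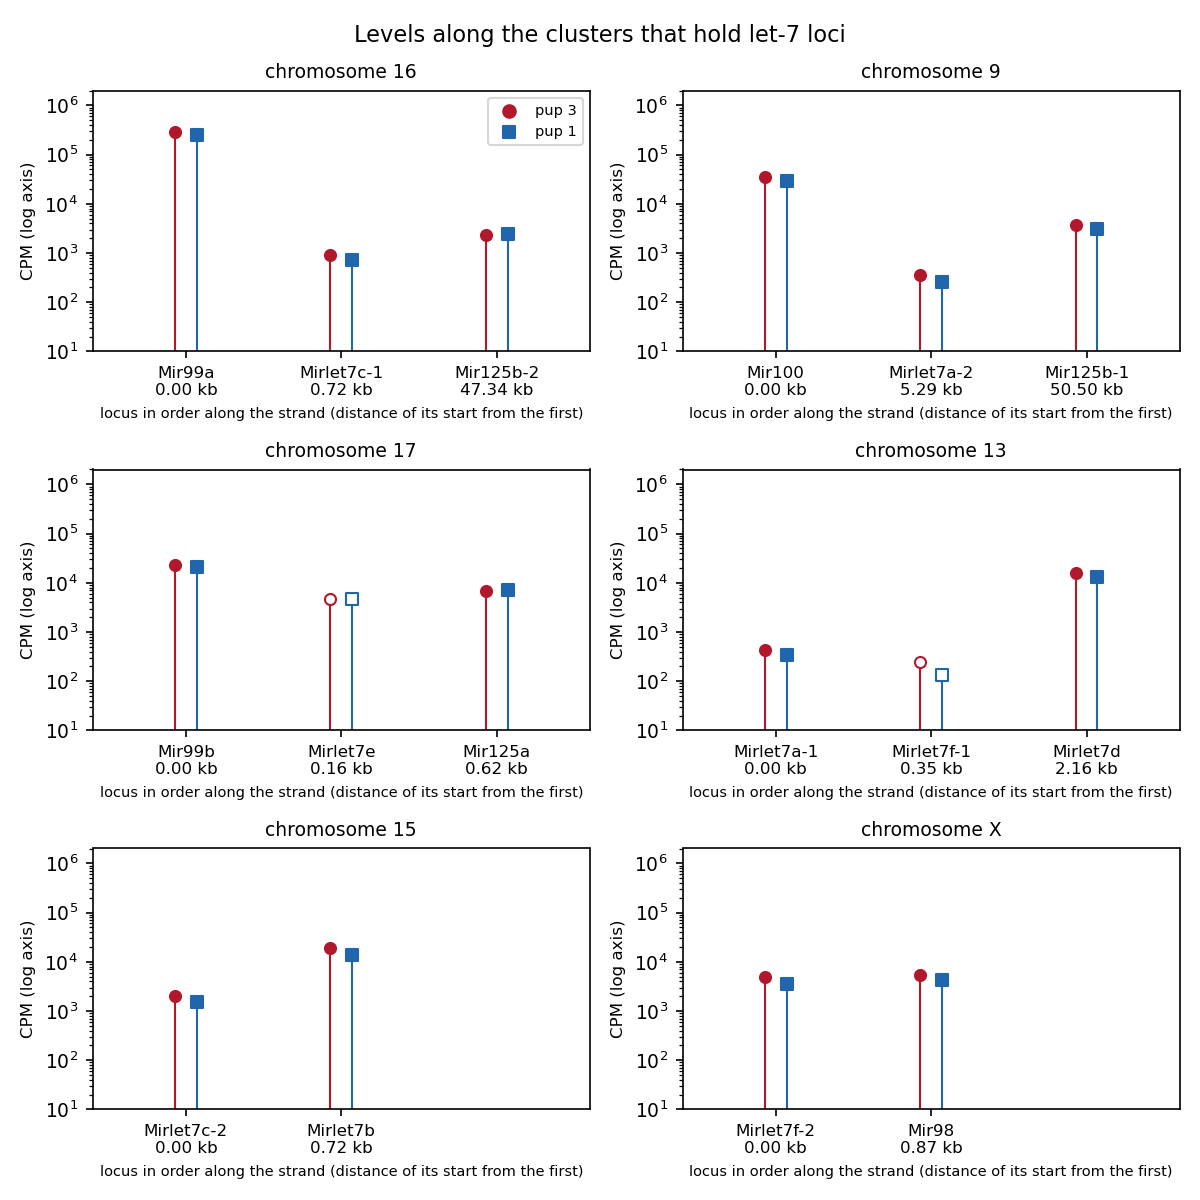
CPM (log axis) of the loci of 6 clusters with let-7 genes, in their order along the strand, in pup 3 (circles) and pup 1 (squares), with the distance of each start from the first. Open symbols are counts opposite an annotated gene, for Mirlet7e and Mirlet7f-1. Mir99a, Mir100 and Mir99b lead the clusters of chromosomes 16, 9 and 17, and Mirlet7d and Mirlet7b those of chromosomes 13 and 15.

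The stretch between the 2 arms of a let-7 precursor carries the contacts of Lin28, whose zinc knuckles bind GGAG. It was searched for GGAG on the strand of the RNA only, and the motif was found in 7 of the 9 members searched and in 8.09% of 643 mouse hairpins with both arms in RefSeq. These stretches, with GGAG in capitals, are shown for the 2 searched members that lack it and for 3 that hold it.
Mirlet7b: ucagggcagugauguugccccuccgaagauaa
Mirlet7c-2: uugggcucugccccgcucugcgguaa
Mirlet7g: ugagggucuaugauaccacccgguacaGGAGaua
Mirlet7i: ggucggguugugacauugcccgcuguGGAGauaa
Mirlet7d: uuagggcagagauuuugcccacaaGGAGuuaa
The 9 stretches had 23 to 34 bases, the shortest at Mirlet7a-2 and Mirlet7c-1 and the longest at Mirlet7g and Mirlet7i. The log2 ratios of pup 3 over pup 1 of the members without the motif, 0.49 at Mirlet7b and 0.41 at Mirlet7c-2, lay among those of the 7 with it, which ran from 0.06 to 0.70. Mirlet7b and Mirlet7c-2 stood at ranks 3 and 7 of the family in level, so loci with and without the motif were also mixed in the order of levels. A match is a match of letters and says nothing of binding by Lin28.

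Outside the family, the 5 loci with at least 100 summed counts whose log2 ratio lay nearest the members' median of 0.39 were Mir122 (0.38), Mir9-3 (0.37), Mir92-2 (0.37), Mir7j (0.34) and Mir10b (0.33). They were much rarer than the leading members. Mir9-3, of the neural miR-9 family, had 604 CPM in pup 3 and 467 CPM in pup 1, and the liver miRNA Mir122 had 63.0 CPM in pup 3 and 48.1 CPM in pup 1. Mir92-2 did not pass the test with library totals (adjusted Fisher's exact p = 0.105). Likeness over 2 libraries is a single ratio, and many loci would lie near any value.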

How the data were processed

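MicroRNA sequencing of 2 forebrains was analysed from a table per library of raw read counts per miRNA gene, deposited by the authors with no normalization. The authors counted on mm10 with annotation release M4, per the text file beside each table. Which aligner and counter were used is not given in the sources used here. The 3 columns of counts in a table were read from layout and values as both strands, the gene's strand and the opposite strand. The gene-strand column was used, without the first 4 rows, which name no gene. Those rows hold reads mapping to several places (44.1% in pup 3, 42.2% in pup 1), unmapped reads (12.3% in pup 3, 13.4% in pup 1), reads on the strand of no locus (2.27% in pup 3, 3.23% in pup 1) and 0 ambiguous reads. Gene-strand counts were 41.3% of 5883027 reads in pup 3 and 41.2% of 6657203 reads in pup 1.

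Names, positions and hosts came from GENCODE M21 (GRCm38, the assembly of mm10), which matched 1894 of the 1973 rows, and sequences from RefSeq (GRCm38.p6). The stretch between the arms of 1 member is not reported here. A locus was matched to other hairpins by identical runs of bases. Log2 ratios are of CPM + 1. The series has no contrast for a quasi-likelihood test in edgeR. Libraries were compared by Fisher's exact test and, with TMM (edgeR) or DESeq2 scales, by exact binomial tests conditional on the summed count. Both were Benjamini-Hochberg adjusted at 0.05 and tried on simulated Poisson counts, which hold no variation between animals. Fisher's exact test called 0 loci there in a case without differences. The binomial test was tried with the true totals only, so its use with TMM or DESeq2 scales was not checked. Ligation and amplification favour some sequences, so levels of different loci compare less well than 1 locus between libraries.

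The pups are separate animals taken as biological replicates, and carry the same donor entry. The members and lists were chosen with earlier results of these data known. Named loci were the members, other miRNAs with the let-7 seed, miRNA genes within 100 kb on the strand of a let-7 gene, the most abundant other locus and the 5 loci of nearest ratio. The let-7 seed lists also held Mir7k and Mir1961, with no count in either pup, which allows up to 1.24 CPM in pup 3 and 1.09 CPM in pup 1 (3 counts). Alternatives were counts of both strands, other scales, totals without Mir99a, pseudocounts, count minimums and single libraries. Scale factors came from edgeR 4.0.16 and DESeq2 1.42.0 in R 4.3.3, tests from scipy 1.17.1 with pandas 2.3.3 and numpy 2.4.6 in Python 3.11.15, and plots from matplotlib 3.10.9.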

Additional observations from a re-analysis of the deposited data

Results flagged for a closer look

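Counts on the strand opposite an annotated miRNA gene are outside the values above, and at 2 places they hold a let-7 gene with no row of its own. Opposite Gm25927, whose span covers all of Mirlet7e (chromosome 17, 17830352 to 17830444), there were 11132 counts in pup 3 and 12575 in pup 1, and none on the strand of Gm25927 itself. The mean was 4586 ± 1.27 CPM (SD, n = 2), against a limit for a count of 0 of 1.24 CPM in pup 3 and 1.09 CPM in pup 1. The log2 ratio of pup 3 over pup 1 was 0.00 (95% counting interval −0.04 to 0.04) with library totals and 0.31 with DESeq2 size factors, so with totals the interval holds 0, as for none of the 10 members.

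Opposite Gm24111, whose span covers Mirlet7f-1, there were 608 counts in pup 3 and 370 in pup 1, and none on the strand of Gm24111. The mean was 193 ± 81.7 CPM. The log2 ratio was 0.89 (0.70 to 1.08) with totals and 1.20 with size factors, above that of each of the 10 members on either scale. Mirlet7f-2 had 19.7 counts per count here in pup 3 (18.1 to 21.4) and 26.4 in pup 1 (23.8 to 29.3).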

How the results depend on the processing

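All 10 members were higher in pup 3 with both strands counted (against 10.4% of tested loci), without Mir99a in the totals (11.5%), with TMM (20.5%) or DESeq2 scales (24.5%), and with at least 1 (5.97%) or at least 100 summed counts (14.9%). Their median log2 ratio of 0.39 moved to 0.64 with TMM-adjusted library sizes and to 0.71 with DESeq2 size factors. It stayed within 0.39 to 0.45 with the other alternatives, and no member changed direction in any. Without Mir99a in the totals the family held 20.6%, since the total is smaller. With both strands counted it held 14.7%, and with the counts at Mirlet7e and Mirlet7f-1 added 15.4%. Single libraries gave 13.3 to 16.7% for the family and 40.5 to 48.8% for the part of Mirlet7g in it. No paired analysis was possible because the series holds a single group. With 1 pup on each side, the ratios have no replicate check and cannot be repeated without a library.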

Other observations

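Mir7j, annotated as mmu-let-7j on chromosome 3 (140028249 to 140028370, plus strand), is not a member by its name or its seed, and no other annotated gene overlaps it. It had 624 counts in pup 3 and 557 in pup 1, or 257 CPM in pup 3 and 203 CPM in pup 1. Its mature sequence is set below that of let-7i-5p, with bases 2 to 8 in capitals, and over the length of let-7i-5p it differs from it by G8U alone, counted from the 5′ end.
let-7i-5p: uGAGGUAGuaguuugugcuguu
mmu-let-7j: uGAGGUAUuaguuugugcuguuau
The hairpins of Mir7j and Mirlet7i share a run of 14 nt. Counts of Mir7j were 0.507% of those of both loci in pup 3 (95% exact interval 0.468 to 0.548%) and 0.649% in pup 1 (0.597 to 0.705%). Its log2 ratio of pup 3 over pup 1 was 0.34 (adjusted Fisher's exact p = 0.000133), beside 0.70 for Mirlet7i. Whether these counts include reads of let-7i with a mismatch was not tested.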
